A study of Homo sapiens with 2 samples.

Results

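Cullin ubiquitin ligases and the proteins that bring substrates to them were examined in A549 cells, an established human lung adenocarcinoma cell line, after silencing of p62/SQSTM1. RNA was taken 24 hours after transfection. The siP62 group was transfected with an siRNA against p62/SQSTM1 (a small RNA duplex through which the cell destroys the mRNA it pairs with), and the siCONTROL group with a control siRNA. Each group has 1 sample and 1 column of values from Affymetrix whole-transcript arrays, taken here as 1 array although the labels do not say whether it summarises several. There was no replicate, no spread within a group and no test between the groups. The effect of the silencing and the variation between single samples cannot be told apart. The genes were chosen by their symbols in the platform annotation, namely those that begin with CUL, FBXL, FBXO, FBXW, KLHL, KBTBD, BTBD, DCAF, ASB, SOCS, WSB or SPOP (CUL, KLHL, ASB and SOCS followed by a digit). This gave 174 of the 14884 named genes. A gene was called measured if the higher of its values on the 2 arrays reached 5.35 on the log2 scale, the median of the named probe sets on both arrays. Of the 174 genes 111 (63.8%) were measured, against 53.1% of all named genes. Of those 111, 109 were protein-coding and the other 2, ASB16-AS1 and SOCS2-AS1, were long noncoding RNAs that the symbol rule took in. Family totals on the array also count 5 further noncoding RNAs or pseudogenes, none of them measured (7 of the 174 in all).

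Cullins are elongated scaffold proteins. One end holds a RING protein that recruits a ubiquitin-charged E2 enzyme, and the other holds an adaptor with an exchangeable substrate receptor, so that the receptor decides which protein is ubiquitinated. F-box proteins serve CUL1, BTB proteins serve CUL3, DCAF proteins serve CUL4A and CUL4B through DDB1, and SOCS-box proteins serve CUL2 or CUL5 through the elongins. The ligases are switched on by attachment of the ubiquitin-like protein NEDD8 and switched off by the COP9 signalosome, which removes it. p62, encoded by SQSTM1, is a receptor of selective autophagy that binds ubiquitin and also binds KEAP1, the CUL3 receptor that marks the transcription factor NRF2 for degradation.

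Differences below are siP62 minus siCONTROL, in log2 units. SQSTM1, the siRNA target, stood at 7.30 in the siP62 array, against 8.64 in the siCONTROL array, a difference of -1.34. In RNA of a whole culture, a smaller share of cells with a transcript and less of it in each cell cannot be told apart. Over all 7896 measured genes the median difference was 0.04, the robust SD over genes was 0.222, and the central 95% ran from -0.50 to 0.56. The control genes GAPDH, TBP, HPRT1, PPIA and B2M differed by -0.08 to 0.20. The epithelial markers named on the array (EPCAM, KRT7, KRT8, KRT18 and KRT19) were all measured, with differences of 0.02 to 0.21. Of the 6 alveolar type II markers on the array 2 were measured, SFTPB (-0.36) and SFTPD (-0.58), both with siP62 values below 5.35, and NKX2-1 and SFTPC were below the limit on both arrays. Their part in the results below was not tested. CD14 (-0.04) and CD68 (-0.06) were measured among 3 leukocyte markers, LUM (0.47) among 2 fibroblast markers, and none of 3 endothelial markers was. LUM lay near the limit, with 5.49 in the siP62 array, against 5.02 in the siCONTROL array, which was below it.

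Of the 111 measured genes, 3 were at least 1.5-fold higher in the siP62 array (2.70%), against 2.08% of all measured genes. The share that was at least 1.5-fold lower was 1.80% (2 genes), against 1.60% of all measured genes. WSB1, FBXL12 and KLHL36 were the higher ones, and SPOP and DCAF12 the lower ones. At 2-fold, WSB1 was the 1 gene higher (0.90%, against 0.165% of all measured genes), and SPOP and DCAF12 were the 2 genes lower (1.80%, against 0.228% of all measured genes). The 1.5-fold shares were close to the background. Once the median difference of all genes was subtracted, 1.61% of all measured genes were 1.5-fold higher and 1.95% lower. These genes were already known from earlier results of the same arrays to be far from 0 and belong to the choice of the gene group, so nothing is read from the 2-fold shares. The median difference over the 111 genes was 0.04, equal to that over all measured genes, and 61 of them (55.0%) were above 0, against 55.4% of all measured genes. Their robust SD over genes was 0.222, also that of all measured genes. Differences of at most 0.2 in size were found for 70 of them (63.1%), against 62.4% of all measured genes. Outside the central 95% of all measured genes lay 7 of the 111 (6.31%), the 5 genes past 1.5-fold with SPOPL and FBXL17.

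**Figure D1:**
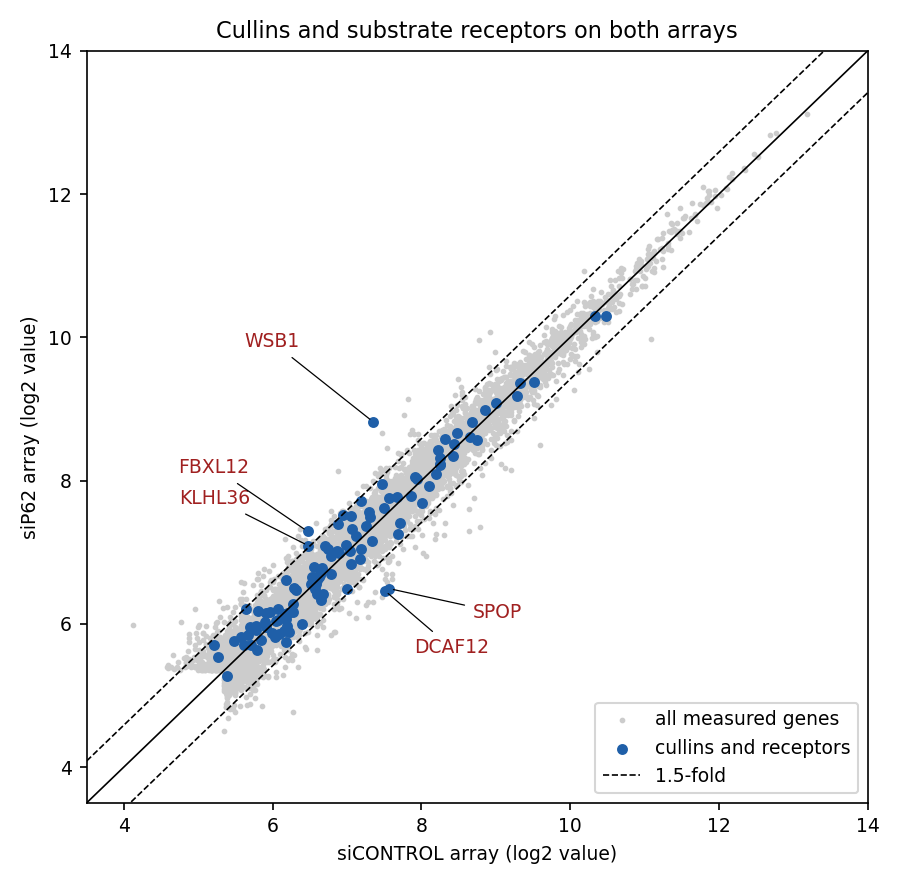
Log2 value in the siP62 array (y axis) against the siCONTROL array (x axis); blue points are the 111 measured cullins and receptors, grey points all 7896 measured genes, and dashed lines mark 1.5-fold. WSB1, FBXL12 and KLHL36 lie above the upper dashed line, and SPOP and DCAF12 below the lower one.

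The promoters of the genes past 1.5-fold and of SPOPL are shown because these are the members whose levels moved furthest or, for SPOPL, the paralog of one that did. Each is the 250 bases before the RefSeq start, on the GRCh38.p14 build, written from 5′ to 3′ on the gene's strand. RefSeq gave SPOP 2 starts, and the one listed first is shown. Capitals mark matches on either strand to the core of the antioxidant response element bound by NRF2 (TGACNNNGC), the AP-1 site (TGANTCA), the E-box (CACGTG), the CCAAT box (CCAAT), the GC box (GGGCGG) and the ETS core (CCGGAAG).
WSB1, chr17:27293864-27294113 (plus strand): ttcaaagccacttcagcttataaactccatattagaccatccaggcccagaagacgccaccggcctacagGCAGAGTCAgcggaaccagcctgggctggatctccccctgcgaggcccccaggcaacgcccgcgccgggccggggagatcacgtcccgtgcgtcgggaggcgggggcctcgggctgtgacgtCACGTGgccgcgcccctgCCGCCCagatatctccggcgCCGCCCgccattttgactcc
FBXL12, chr19:9819080-9819329 (minus strand): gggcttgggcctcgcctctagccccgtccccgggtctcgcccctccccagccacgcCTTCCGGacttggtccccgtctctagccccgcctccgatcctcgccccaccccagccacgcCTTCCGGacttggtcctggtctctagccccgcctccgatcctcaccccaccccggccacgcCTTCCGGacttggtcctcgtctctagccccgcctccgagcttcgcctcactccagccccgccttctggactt
KLHL36, chr16:84648261-84648510 (plus strand): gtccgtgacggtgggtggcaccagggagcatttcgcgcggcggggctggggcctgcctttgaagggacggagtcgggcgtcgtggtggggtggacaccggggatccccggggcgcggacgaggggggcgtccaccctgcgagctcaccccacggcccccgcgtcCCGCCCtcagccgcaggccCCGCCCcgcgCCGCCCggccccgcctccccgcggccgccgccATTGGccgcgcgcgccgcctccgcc
SPOP, chr17:49678164-49678413 (minus strand): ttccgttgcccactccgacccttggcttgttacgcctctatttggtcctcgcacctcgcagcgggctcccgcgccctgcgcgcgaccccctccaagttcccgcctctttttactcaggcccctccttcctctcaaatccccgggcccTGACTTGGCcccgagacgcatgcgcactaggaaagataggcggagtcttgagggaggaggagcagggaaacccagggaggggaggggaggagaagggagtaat
SPOPL, chr2:138501520-138501769 (plus strand): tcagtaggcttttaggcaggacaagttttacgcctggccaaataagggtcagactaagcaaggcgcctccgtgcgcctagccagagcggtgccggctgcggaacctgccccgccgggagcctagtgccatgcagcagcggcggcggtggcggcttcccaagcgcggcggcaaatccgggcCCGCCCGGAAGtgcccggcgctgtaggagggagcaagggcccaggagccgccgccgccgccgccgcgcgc
DCAF12, chr9:34126699-34126948 (minus strand): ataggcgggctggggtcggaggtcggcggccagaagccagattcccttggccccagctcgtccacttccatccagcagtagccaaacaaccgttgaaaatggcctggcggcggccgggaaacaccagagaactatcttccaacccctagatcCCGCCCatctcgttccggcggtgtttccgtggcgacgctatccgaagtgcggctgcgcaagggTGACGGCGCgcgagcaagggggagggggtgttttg
The antioxidant response element core had 1 match in each of the WSB1, SPOP and DCAF12 windows and none in the other three. It was present in 11.0% of the windows of all 27305 genes in the promoter set used. Of the measured cullin and receptor genes 92 were in that set, and 16 of these (17.4%) had a match. Of the genes shown with a match, WSB1 was higher and SPOP and DCAF12 were lower. Whether the match had a part in these differences was not tested. In the FBXL12 window the ETS core occurred 3 times, within a repeated stretch, and it was present in 20 (21.7%) of the 92 windows and in 8.82% of all windows. The single ETS core of SPOPL overlapped its GC box by shared letters. The GC box was in 55 (59.8%) of the 92 windows and in 42.3% of all, and the WSB1 window held 2, the KLHL36 window 3, and the SPOPL and DCAF12 windows 1 each. A CCAAT box occurred once, in KLHL36, against 33.0% of all windows and 22.8% of the 92. The E-box had 1 match, in WSB1 (6.49% of all windows, 5.43% of the 92), and the AP-1 site had none in these 6 windows (6.60% of all, 5.43% of the 92). The 92 windows belong to measured genes, while the windows of all genes were not limited to measured ones. The 2 sets are thus unlike, and nothing is read from the gaps between their shares. Matches are descriptions of letters, not binding sites.

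The cullin scaffolds lay within the central 95% of all measured genes. All 8 cullins on the array were measured. None reached 1.5-fold, as with most measured genes (2.08% were past it higher and 1.60% lower). Their differences were -0.04 to 0.38, with a median of 0.13, against 0.04 over all measured genes. CUL9, an atypical cullin that binds p53 in the cytoplasm, had the highest difference, with 6.18 in the siP62 array, against 5.80 in the siCONTROL array. CUL5, the scaffold of SOCS-box receptors, had 7.56 in the siP62 array, against 7.29 in the siCONTROL array. CUL1, the scaffold of the F-box ligases, had 8.99 in the siP62 array, against 8.86 in the siCONTROL array. Both CUL1 and CUL4A (8.05 in siP62, 7.92 in siCONTROL) differed by 0.13, as did CUL7 (6.20 in siP62, 6.07 in siCONTROL), which pairs with FBXW8. CUL4B, the X-linked paralog of CUL4A, differed by 0.07 (8.51 in siP62, 8.44 in siCONTROL). CUL2, the scaffold used by the von Hippel-Lindau protein, and CUL3, the scaffold of KEAP1 and SPOP, were the 2 below 0. CUL2 had 8.22 in the siP62 array, against 8.25 in the siCONTROL array. CUL3 had 8.61 in the siP62 array, against 8.65 in the siCONTROL array, a difference of -0.04. The scaffold that SPOP and KEAP1 use was thus within 0.05 of its siCONTROL value, less than the robust SD over genes.

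**Figure D2:**
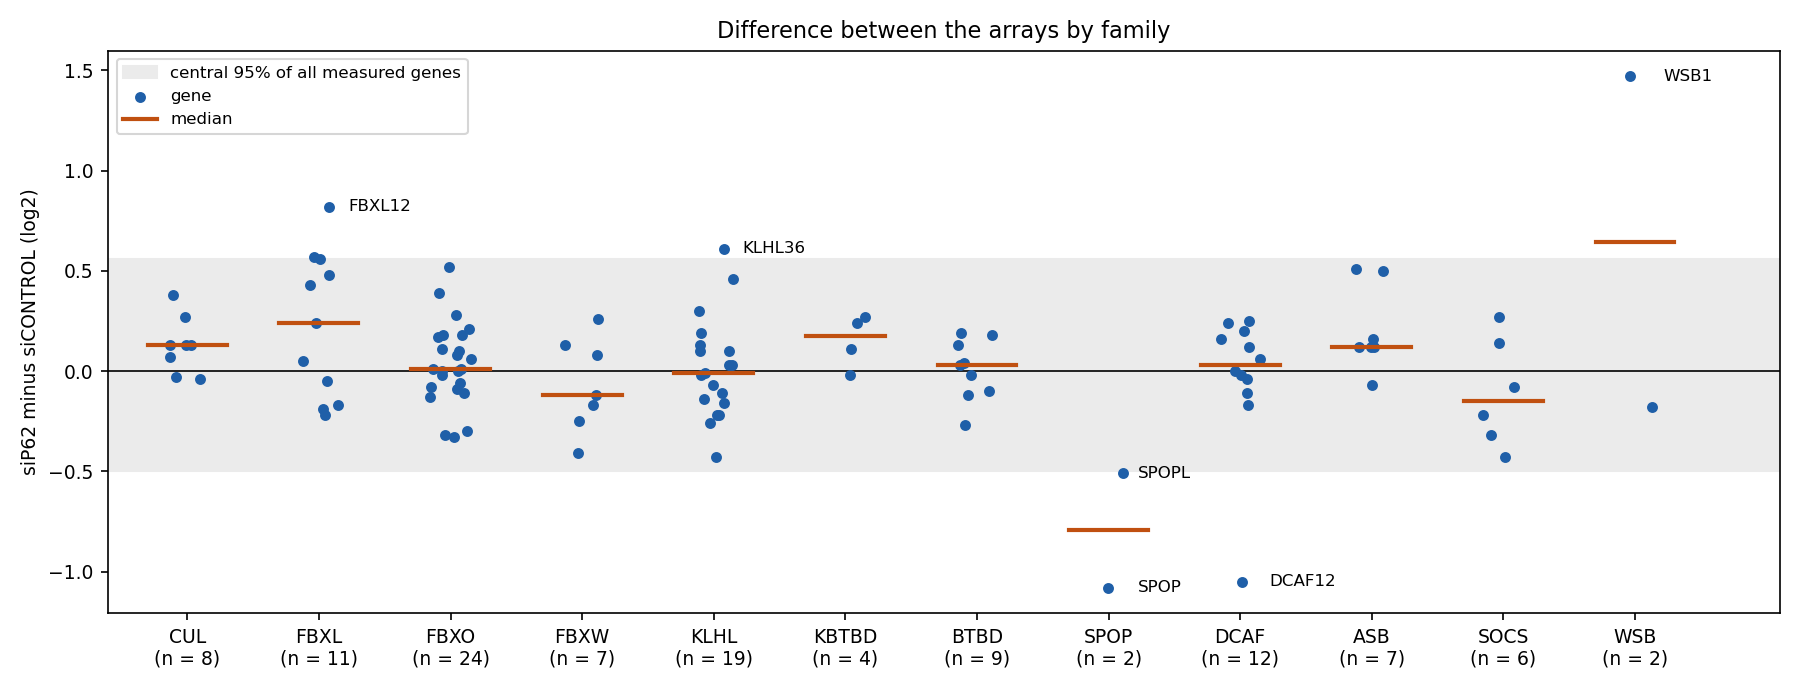
Difference between the arrays (siP62 minus siCONTROL, log2) of each measured gene by family, with the family's median as a bar and the central 95% of all measured genes in grey; n is the number of measured genes. WSB1, FBXL12 and KLHL36 lie above the grey band and SPOP and DCAF12 below it, with FBXL17 and SPOPL at its edges; the cullins lie within it.

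F-box receptors of CUL1 had 59 genes on the array and 42 measured, the most of any class here. FBXL12 was the 1 gene past 1.5-fold higher (2.38%, against 2.08% of all measured genes). On the lower side 0 were past it, against 1.60% of all measured genes. These shares were close to the background. The FBXL family, whose proteins carry leucine-rich repeats, had a median difference of 0.24 over 11 measured genes of 16. Of the 11, 7 (63.6%) were above 0, against 55.4% of all measured genes, and 4 were below. FBXL12, which targets inhibitors of cyclin-dependent kinases, had 7.29 in the siP62 array, against 6.47 in the siCONTROL array. It was 1.77-fold higher, a difference of 0.82 where the robust SD over genes of like level was 0.252. FBXL17, which removes wrongly paired BTB protein dimers, had 7.52 in the siP62 array, against 6.95 in the siCONTROL array. Its difference of 0.57 fell just short of 1.5-fold (0.585). FBXL18 had 6.20 in the siP62 array, against 5.64 in the siCONTROL array, but its other probe set went the other way with 4.66 in siP62 and 4.95 in siCONTROL, below the limit. FBXL4, a mitochondrial F-box protein that restrains mitophagy, had 7.95 in the siP62 array, against 7.47 in the siCONTROL array. FBXL6 differed by 0.43 and the CpG-binding FBXL19 by 0.24. Those below 0 were FBXL7 (-0.22), FBXL20 (-0.19), FBXL5 (-0.17) and FBXL8 (-0.05). FBXL5 is the iron sensor that controls the iron regulatory protein IRP2, and it had 7.93 in the siP62 array, against 8.10 in the siCONTROL array. FBXL20 had 8.56 in the siP62 array, against 8.75 in the siCONTROL array. Without the filter on low values the median of the FBXL family was 0.03 over all 16 genes.

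The FBXO family, F-box proteins with other substrate-binding domains, was spread evenly around 0. Its 24 measured genes of 33 had a median difference of 0.01. Of the 24, 13 (54.2%) were above 0, against 55.4% of all measured genes, 9 were below and 2 equal. Differences of at most 0.2 in size were found for 17 of them (70.8%), against 62.4% of all measured genes. FBXO27, which binds glycoproteins, had the highest difference, with 7.71 in the siP62 array, against 7.19 in the siCONTROL array. FBXO2, another glycoprotein receptor, differed by 0.11, and its chromosomal neighbour FBXO44 by 0.01. FBXO46 differed by 0.39 and FBXO41 by 0.28. FBXO25 had the lowest difference, with 5.89 in the siP62 array, against 6.22 in the siCONTROL array. FBXO32, the muscle atrophy receptor also called atrogin-1, had 6.33 in the siP62 array, against 6.65 in the siCONTROL array. FBXO22, a receptor for BACH1, which competes with NRF2 on DNA, differed by -0.30 (7.41 in siP62, 7.71 in siCONTROL). A further FBXO22 probe set, below the limit, differed by -0.01. FBXO11, a receptor for BCL6, had 9.38 in the siP62 array, against 9.51 in the siCONTROL array. FBXO7, which takes part in mitophagy and is mutated in a form of parkinsonism, differed by 0.08. FBXO5, an inhibitor of the anaphase-promoting complex, differed by -0.11.

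The FBXW family, whose receptors carry WD40 repeats, had a median of -0.12 over 7 measured genes of 10. Of the 7, 3 (42.9%) were above 0, against 55.4% of all measured genes, and 4 were below. FBXW9 had the lowest difference of the family, with 5.99 in the siP62 array, against 6.40 in the siCONTROL array, a difference of -0.41. FBXW2 had the highest difference, with 8.58 in the siP62 array, against 8.32 in the siCONTROL array. FBXW11, a receptor for phosphorylated beta-catenin and IkB, differed by -0.17, and BTRC, its paralog outside the symbol rule, by 0.08. FBXW5 (8.81 in siP62, 8.68 in siCONTROL) differed by 0.13. FBXW8, the partner of CUL7, differed by 0.08. FBXW10 (-0.12) and FBXW10B (-0.25) are closely related copies, and their probes were not checked against each other. With a limit at the 70th percentile the family median was 0.105.

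BTB receptors of CUL3 had 59 genes on the array and 34 measured. Of the 34, 17 (50.0%) were above 0, against 55.4% of all measured genes, and 17 were below. SPOP, the adaptor that joins BRD2, BRD3, DAXX and GLI proteins to CUL3, had 6.49 in the siP62 array, against 7.57 in the siCONTROL array. It was 2.11-fold lower, a difference of -1.08 where the robust SD over genes of like level was 0.208, and it took place 9 from the lowest of all measured genes. SPOPL, its paralog and dimer partner, had 6.49 in the siP62 array, against 7.00 in the siCONTROL array. At 1.42-fold lower it did not reach 1.5-fold. Each of them was read by 1 probe set, and their probes were not checked against each other.

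In the KLHL family, whose kelch repeats bind substrates, the median difference was -0.01 over 19 measured genes of 36. KLHL36 was the 1 gene past 1.5-fold (5.26%, against 2.08% of all measured genes higher). It had 7.09 in the siP62 array, against 6.48 in the siCONTROL array. Its difference was 0.61, which became 0.57, under 1.5-fold, when the median difference of all genes or a loess curve was subtracted and under quantile normalization. KLHL9 and KLHL21 both act on Aurora B in mitosis and differed in opposite directions. KLHL9 had 7.51 in the siP62 array, against 7.05 in the siCONTROL array. KLHL21 had 5.75 in the siP62 array, against 6.18 in the siCONTROL array. KLHL12, which ubiquitinates SEC31 on transport vesicles, differed by 0.30 and KLHL26 by 0.19. KLHL24, which controls keratin turnover in skin, differed by -0.26, KLHL25 and KLHL4 by -0.22 each, and KLHL20, which ends autophagy by degrading ULK1, by -0.14. KLHL5 had 8.23 in the siP62 array, against 8.25 in the siCONTROL array. The 2 measured probe sets of KLHL42 differed by 0.03 and 0.02, and a further one, below the limit, by 0.52. KLHL28, close above the limit and level there with ASB9 and KLHL17, had 5.71 in the siP62 array, against 5.61 in the siCONTROL array.

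Of the 9 KBTBD genes 4 were measured, with a median difference of 0.175. None was past 1.5-fold, as with most measured genes (2.08% were past it higher and 1.60% lower). KBTBD6 and KBTBD7, which are chromosomal neighbours and act together on TIAM1, differed by 0.27 and 0.24. KBTBD6 had 5.96 in the siP62 array, against 5.69 in the siCONTROL array. KBTBD7 had 5.82 in the siP62 array, against 5.58 in the siCONTROL array. KBTBD2, which limits a subunit of PI3-kinase, differed by 0.11 (7.23 in siP62, 7.12 in siCONTROL), and KBTBD4, linked to degradation of the CoREST repressor complex, by -0.02. Of the 12 BTBD genes 9 were measured, with differences of -0.27 (BTBD6) to 0.19 (BTBD8). Within 0.2 were 8 of the 9 (88.9%), against 62.4% of all measured genes. With 9 genes nothing is read from this share. BTBD6 had 6.90 in the siP62 array, against 7.17 in the siCONTROL array, and BTBD8 had 5.97 in siP62, against 5.78 in siCONTROL. BTBD2 (9.36 in siP62, 9.33 in siCONTROL) and BTBD1 (9.18 in siP62, 9.28 in siCONTROL), which bind topoisomerase I, differed by 0.03 and -0.10. BTBD9, linked to restless legs syndrome, was the measured gene closest to the limit, with 5.27 in the siP62 array, against 5.39 in the siCONTROL array.

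**Figure D3:**
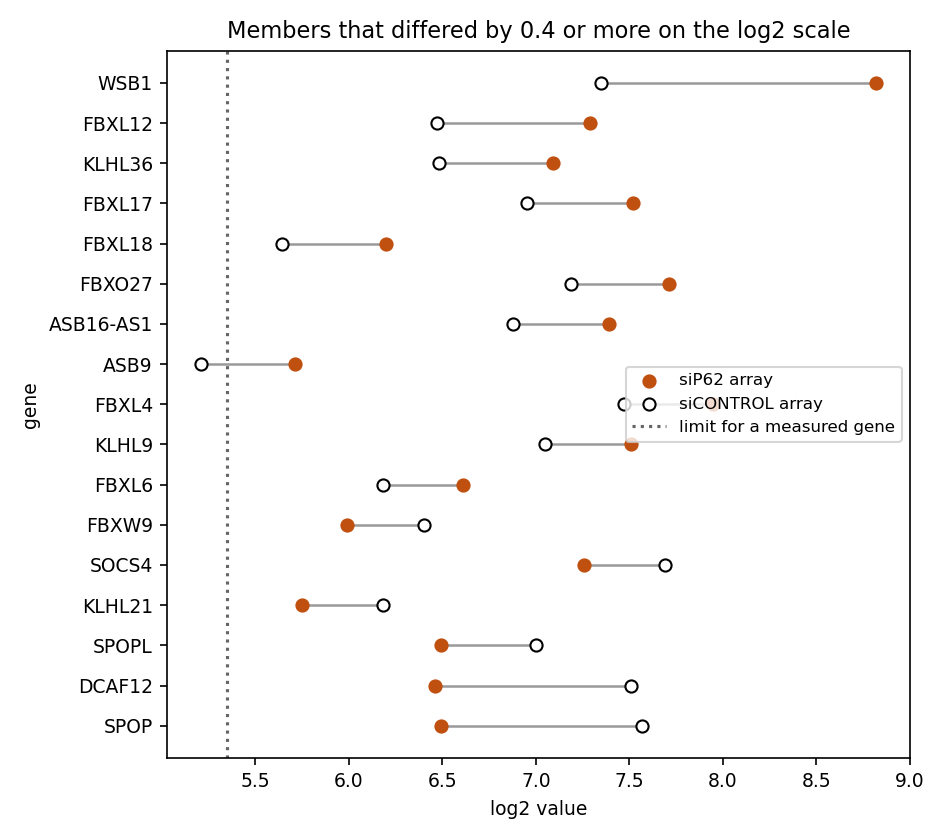
Log2 value (x axis) in the siP62 array (filled) and in the siCONTROL array (open) of the measured members that differed by 0.4 or more in either direction, ordered by difference; the dotted line marks the limit of 5.35. WSB1 has the longest line, and of the 17 genes shown only ASB9 crosses the limit.

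DCAF receptors of CUL4 were represented by 19 genes, 12 of them measured. DCAF12, which recognises proteins ending in a pair of glutamates, had 6.46 in the siP62 array, against 7.51 in the siCONTROL array. It was 2.07-fold lower, a difference of -1.05 where the robust SD over genes of like level was 0.252. The other 11 measured DCAF genes lay between -0.17 (DCAF17) and 0.25 (DCAF15), all within the central 95% of all measured genes. DCAF15, the receptor that aryl sulfonamide drugs redirect to the splicing factor RBM39, had 7.32 in the siP62 array, against 7.07 in the siCONTROL array. DCAF7, a scaffold of DYRK1A, had 10.30 in the siP62 array, against 10.34 in the siCONTROL array. DCAF1, the receptor hijacked by the Vpr protein of HIV, differed by 0.06, DCAF5 by 0.20 and DCAF11 by 0.24. For DCAF6 a measured second probe set differed by 0.16, where the first differed by -0.11. DCAF12L1, a close relative of DCAF12, was below the limit on both arrays, with 3.37 in the siP62 array, against 4.30 in the siCONTROL array. The probes of these relatives were not checked against each other.

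SOCS-box receptors, which bind elongins and CUL2 or CUL5, had 29 genes on the array and 15 measured. WSB1, a WD40 receptor that targets HIPK2 and the type II iodothyronine deiodinase, had 8.82 in the siP62 array, against 7.35 in the siCONTROL array. It was 2.77-fold higher, a difference of 1.47 where the robust SD over genes of like level was 0.208, and 1 of all 7896 measured genes had a higher difference. Its paralog WSB2 had 10.30 in the siP62 array, against 10.48 in the siCONTROL array. That was a difference of -0.18 where the robust SD over genes of like level was 0.148. The SOCS proteins restrain cytokine receptor signalling. Of their 5 measured protein-coding genes 4 were below 0, against 41.8% of all measured genes, with a median of -0.22. With SOCS2-AS1, which the rule also took in, the median was -0.15. This family median was -0.105 without the filter. With the mean over probe sets it was -0.08, and SOCS3 fell below the limit there because its second probe set was low (2.52 in siP62, 2.60 in siCONTROL). It was -0.22 with the limit at the 70th percentile and also with both arrays held to the limit. After centring by the median, centring by loess and quantile normalization it was -0.19, -0.195 and -0.185. SOCS2, below the limit on both arrays, differed by 0.35. SOCS4, which acts on the EGF receptor, had 7.26 in the siP62 array, against 7.69 in the siCONTROL array. SOCS5, its paralog, had 7.69 in the siP62 array, against 8.01 in the siCONTROL array. SOCS3, the inhibitor of gp130 signalling, differed by -0.22, SOCS6 by -0.08 and SOCS7 by 0.14. SOCS6 had 8.34 in the siP62 array, against 8.42 in the siCONTROL array. SOCS2-AS1, an antisense RNA, lay just above the limit with 5.53 in the siP62 array, against 5.26 in the siCONTROL array.

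The ASB proteins bind substrates through ankyrin repeats. Of the 6 measured protein-coding genes 5 were above 0, against 55.4% of all measured genes, with a median of 0.12. By symbol the family had 19 genes on the array, the pseudogene ASB9P1 and ASB16-AS1 among them, and 7 measured. ASB1, ASB6 and ASB13 each differed by 0.12 and ASB7 by 0.16. ASB6 had 7.37 in the siP62 array, against 7.25 in the siCONTROL array. A second ASB1 probe set, below the limit, differed by 0.55. ASB9, a receptor for brain creatine kinase, had 5.71 in the siP62 array, against 5.21 in the siCONTROL array, which lay below the limit. ASB16 (-0.07) and its antisense RNA ASB16-AS1 (0.51) differed unequally. ASB16-AS1 had 7.39 in the siP62 array, against 6.88 in the siCONTROL array, and ASB16 had 5.77 in siP62, against 5.84 in siCONTROL. Of the 63 genes that were not measured, the nearest to the limit were FBXW4P1 (5.33 in siP62, 5.05 in siCONTROL), ASB10 (5.24 in siP62, 5.08 in siCONTROL) and ASB8 (4.90 in siP62, 5.18 in siCONTROL).

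The genes next to the members named above on the chromosome were also described. For WSB1, FBXL12, KLHL36, SPOP, SPOPL and DCAF12 the nearest 2 protein-coding genes on either side were taken from the RefSeq table of GRCh38.p14, and 10 of them were measured. Their differences ran from -0.26 to 0.27. Few of all measured genes passed 1.5-fold (2.08% higher and 1.60% lower), so nothing is read from this range. For SPOP only NGFR was measured, close to the limit (5.28 in siP62, 5.42 in siCONTROL). DCAF12 had all 4 neighbours measured. UBAP1 next to it was at 8.07 on both arrays, and UBAP2 on the other side differed by 0.11. KSR1, next to WSB1, had 8.72 in the siP62 array, against 8.52 in the siCONTROL array.

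The machinery that the receptors share was described from lists of genes outside the symbol rule. Of 12 genes for NEDD8 attachment and the RING subunits 3 were named on the array, and all 3 were measured. RNF7, the RING subunit that serves CUL5, had 7.17 in the siP62 array, against 6.94 in the siCONTROL array. NAE1 and UBA3, which together form the NEDD8-activating enzyme, differed by -0.04 and -0.02. Of 14 adaptors and ubiquitin transfer enzymes 6 were named on the array and 5 measured, with a median difference of 0.14. None was past 1.5-fold, as with most measured genes (2.08% were past it higher and 1.60% lower). UBE2G1, an E2 enzyme that works with CUL4 ligases, had 10.38 in the siP62 array, against 10.00 in the siCONTROL array. CDC34, the E2 enzyme of the F-box ligases, had 7.53 in the siP62 array, against 7.22 in the siCONTROL array, while its paralog UBE2R2 differed by -0.11 and the ligase partner ARIH2 by 0.14. Genes of the COP9 signalosome and of cullin exchange had a median of 0.01 over 11 measured of the 13 named on the array. Of the 11, 9 (81.8%) differed by at most 0.2, against 62.4% of all measured genes. COPS4 had the lowest of these, with 6.37 in the siP62 array, against 6.83 in the siCONTROL array. COPS5, the catalytic subunit that removes NEDD8, differed by -0.19, COPS7A by 0.27, COPS2 by 0.15 and CAND1, which exchanges receptors on CUL1, by 0.04.

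Receptors that the symbol rule left out were looked at in the same way. Of 55 such genes 47 were named on the array and 42 measured, with a median of -0.04. Of the 42, 17 (40.5%) were above 0, against 55.4% of all measured genes, and 25 were below. On the higher side 0 were past 1.5-fold, against 2.08% of all measured genes. On the lower side 2 were past it (4.76%, against 1.60% of all measured genes). The list was made with earlier results of these data known, so nothing is read from these shares. IBTK, a BTB receptor for CUL3, had 8.23 in the siP62 array, against 9.07 in the siCONTROL array. It was 1.79-fold lower. PCMTD1, a SOCS-box protein related to protein repair methyltransferases, had 4.98 in the siP62 array, against 5.64 in the siCONTROL array, and the siP62 value was below the limit. RHOBTB2 (-0.51) and the CUL2 receptor FEM1A (-0.49) were the next lowest, while FEM1B differed by 0.16 and FEM1C by -0.05. KEAP1, which p62 binds, had 8.10 in the siP62 array, against 8.38 in the siCONTROL array. CRBN, the receptor redirected by thalidomide, differed by -0.03.

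**Figure D4:**
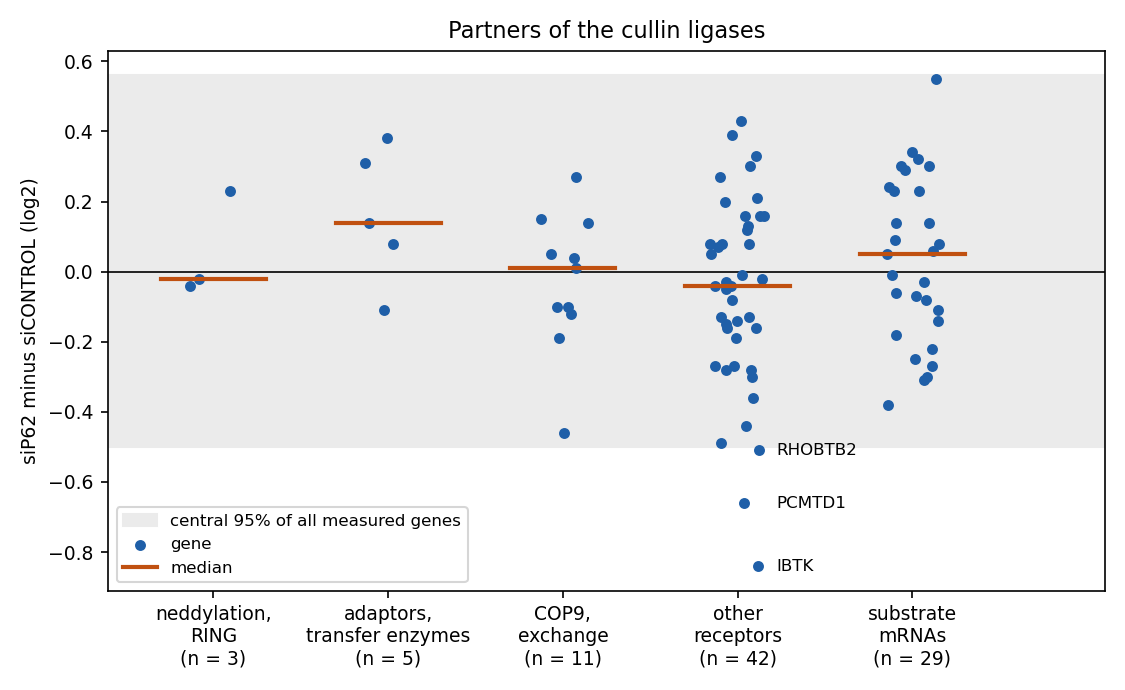
Difference between the arrays (siP62 minus siCONTROL, log2) of the measured genes in each list of cullin ligase partners, with the list's median as a bar and the central 95% of all measured genes in grey; n is the number of measured genes. IBTK, PCMTD1 and RHOBTB2, all receptors outside the symbol rule, lie below the grey band.

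Proteins that cullin ligases degrade were described at the mRNA level, where the array says nothing about protein. Of 42 substrate genes 31 were named on the array and 29 measured, with a median difference of 0.05. Of the 29, 15 (51.7%) were above 0, against 55.4% of all measured genes, and 14 were below. In either direction 0 were past 1.5-fold, where 2.08% of all measured genes were past it higher and 1.60% lower. Nothing is read from these counts. CCNE1, the E-type cyclin degraded through F-box ligases, had the highest difference, with 8.19 in the siP62 array, against 7.64 in the siCONTROL array. NFE2L2, which encodes the KEAP1 substrate NRF2, differed by -0.08. Of the substrates of SPOP, the bromodomain gene BRD3 differed by -0.38, BRD2 by 0.14, DAXX by 0.24 and GLI2 by 0.29. BRD3 had 7.03 in the siP62 array, against 7.41 in the siCONTROL array. HIPK2, a WSB1 substrate, had 10.97 in the siP62 array, against 10.91 in the siCONTROL array. CRY1 (0.34) and CRY2 (-0.27), clock repressors degraded through F-box ligases, differed in opposite directions, and CDC25A, a cell cycle phosphatase, differed by 0.32.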

How the data were processed

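RNA of A549 cells was read on 2 arrays, 1 for siP62 and 1 for siCONTROL. The deposited table held 48226 probe sets with 1 log2 value for each array; per the submitters' processing notes, Transcriptome Analysis Console 4.0.2.15 and RMA were used. RMA as commonly defined makes the distributions of arrays alike, so a shift of all genes together would not be seen; the arrays that entered it and the genome build are not stated in the labels. Values of different probe sets are not comparable as amounts of RNA. The number of arrays limits the precision.

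The platform annotation named 16098 probe sets with 1 gene symbol; 32128 were unnamed and not used. A gene was represented by its probe set of highest mean over both arrays, and 6 members had more than 1. Differences, counts past 1.5-fold and 2-fold (0.585 and 1 on the log2 scale), medians and robust SDs (over all genes and over 20 bins of like mean level) were computed with pandas 2.3.3 and numpy 2.4.6 in Python 3.11.15; no test was possible. The procedure was tested on simulated data. The members and lists were chosen with earlier results of these data known. The text names SQSTM1, KEAP1, control genes, every cullin, every member past 1.5-fold, each family's highest and lowest difference and highest value, the 3 members nearest the limit on either side, and in each partner list the 4 largest absolute differences and genes past 1.5-fold; other genes illustrate a family and were picked with their values known. Alternatives were centring by the median or by loess (statsmodels 0.14.6, span 0.4), quantile normalization, 3 other filters, and the mean over probe sets.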

Additional observations from a re-analysis of the deposited data

Results flagged for a closer look

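DCAF4L2, a relative of DCAF4 with both values below the limit, entered none of the comparisons at the main setting. It had 4.09 in the siP62 array, against 3.40 in the siCONTROL array. It is listed because its siP62 value exceeded its siCONTROL value by 0.69, past 1.5-fold, among values left out by the filter. Whether either value was above background was not tested.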

How the results depend on the processing

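With 1 array per group no setting gave a test, and no paired analysis was possible because each group held 1 sample. The 5 members past 1.5-fold kept their direction under every alternative run, and WSB1, SPOP and DCAF12 stayed past 2-fold, while KLHL36 dropped under 1.5-fold after centring by the median or loess and after quantile normalization, which left 2 members higher. Those 3 settings moved the counts of all measured genes past 1.5-fold from 164 higher and 126 lower to 127 and 154, 128 and 154, and 141 and 144. Without a filter the 1.5-fold counts were 4 higher and 4 lower (2.30% of members each, against 2.05% and 2.14% of all genes), the added ones being DCAF4L2 on the higher side and DCAF12L1 and DCAF13P3 on the lower, and the median of the FBXL family was 0.03. The median of the FBXW family was 0.105 once the filter was raised to the 70th percentile (6.67). For both family medians the genes entering differed, and these were 2 of 133 medians to move by the tolerance, 0.13, the median span between a gene's probe sets over 244 genes, or more. Of 273 values of single genes under alternatives 0 moved that far, which was largely fixed in advance. A filter cannot change the difference of a gene, and median centring shifted every gene by 0.04. None of the 41 genes followed had several probe sets, so the mean over probe sets left them unchanged. FBXL18, whose probe sets went opposite ways, was not among them. Counting protein-coding members alone, chosen after seeing the data, gave the same 3 higher and 2 lower. That too was fixed in advance, because the genes left out, ASB16-AS1 (0.51) and SOCS2-AS1 (0.27), were not past 1.5-fold. Centring by the median turned the medians of the F-box, BTB, FBXO, BTBD, DCAF and COP9 signalosome groups below 0.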
